A study of Mus musculus with 48 samples.

Results

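Induced pluripotent stem cells (iPSCs) carrying a given reprogramming cassette were compared with the embryonic stem cells (ESCs) that carry the same cassette. The 8 libraries, of 48 in the study, were MKOS iPSCs and OKMS iPSCs kept without doxycycline and TNG MKOS ESCs and TNG OKMS ESCs, with 2 libraries of each. MKOS and OKMS are polycistronic, doxycycline-inducible cassettes for Myc, Klf4, Oct4 (Pou5f1) and Sox2, named for the order of the factors. Each cassette had been targeted, together with the reverse tetracycline transactivator under the CAG promoter, into an intron of Sp3 in TNG ESCs, which carry green fluorescent protein in the Nanog locus. All 8 libraries therefore share the reporter, the cassette locus and the transactivator. The iPSCs were made from mouse embryonic fibroblasts (MEFs) of chimeric embryos from the same TNG MKOS and TNG OKMS ESCs, so that each iPSC sample has an ESC sample of matching cassette. Per the labels, cells of each sample were sorted by flow cytometry. The methods name medium with leukaemia inhibitory factor (LIF) for both ESCs and iPSCs. The other lines used here were the E14 ESC line, the TNG ESC line without a cassette, an iPSC line labelled D6, MKOS and OKMS iPSCs in 2i medium, and 6 MEF libraries. Neither the labels nor the methods say whether the 2 libraries of a condition were separate clones or cultures, and p-values measure only the spread between these libraries.

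ESCs and iPSCs are both kept in self-renewal by a core set of transcription factors that includes Oct4, Sox2 and Nanog. An iPSC line starts from a differentiated genome, whose promoter methylation, parental imprints and silenced germline genes must be reset or kept, and an ESC line starts from the inner cell mass of a blastocyst. Imprinted genes are expressed from 1 parental allele, germline genes are mostly silenced by promoter methylation in somatic cells, and both groups are known to vary between pluripotent lines.

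RNA was measured by a tag method that reads the 5′ end of each transcript, and the deposited values were raw read counts per gene. The 8 libraries held 4848232 to 10222431 transcript reads outside chromosome Y, and levels are given as counts per 1000000 of these reads (CPM). A count of 0 in a library allowed up to 0.2935 to 0.6188 CPM, the level of 3 reads. OKMS iPSC replicate 1 stood apart, with correlations of 0.809 to 0.873 to the other 7 libraries, against 0.861 to 0.934 among the other 21 pairs, and the largest repeat share at 26.46%. TNG OKMS ESC replicate 1 had the lowest mitochondrial share, 3.331%.

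The labels were checked on marker genes first. Pou5f1, at 865 to 1230 CPM in the ESCs and 569 to 983 CPM in the iPSCs, differed by -0.24 on the log2 scale, iPSCs over ESCs (FDR = 0.812 by edgeR's quasi-likelihood test). Sox2 differed by -0.27 (FDR = 0.773) and Nanog by 0.15 (FDR = 0.923). Klf4 differed by -0.44 (FDR = 0.779), but by -1.26 without MKOS iPSC replicate 1 (FDR = 0.0621), and Myc differed by -0.88 (FDR = 0.449). The counts do not separate cassette from endogenous transcripts of the 4 factors. None of the 18 naive pluripotency factors tested was past the threshold, with a median of -0.41 and 4 of 18 above 0, and their summed level was 1870 to 3410 CPM in the iPSCs and 2780 to 3890 CPM in the ESCs. Of the fibroblast genes, 28 in all and 20 tested, the summed level was 317 to 464 CPM in the iPSCs, 239 to 486 CPM in the ESCs and 13200 to 15700 CPM in MEFs. The collagen gene Col1a1, a defining fibroblast marker with a mean of 744 CPM in MEFs, was at 0.887 to 5.78 CPM in the iPSCs and 0 to 1.85 CPM in the ESCs. Sp3, the targeted host gene, was at 7.22 to 28.2 CPM in the iPSCs and 20.6 to 32.0 CPM in the ESCs (log2 difference -0.18, FDR = 0.898). Hprt, a purine salvage gene, was at most 1.86 CPM in all 8 libraries, and was also low in E14 ESCs (0.929 and 1.74 CPM) and TNG ESCs (at most 0.0872 CPM). MKOS MEFs had 3.28 and 4.21 CPM, OKMS MEFs 21.7 and 22.8 CPM, wild-type MEFs 192 and 197 CPM and D6 iPSCs 241 and 275 CPM.

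Of 12443 genes tested, 89 (0.715%) differed between iPSCs and ESCs at a false discovery rate (FDR, Benjamini-Hochberg) of at most 0.05, with cassette as a covariate. 79 genes (0.635%) were higher in iPSCs and 10 (0.0804%) lower. The 79 higher genes included meiotic and testis genes, imprinted genes and X-linked genes, and 59 of them had a log2 fold change over 2. The 4 iPSC values of 62 of the 79 lay above all 4 ESC values, where 2.60% of all genes did, and 9 of the 10 lower genes lay below, where 3.32% of all genes did. These genes were chosen by a test on the same 8 libraries, which selects for such gaps. All 89 had the same sign within MKOS and within OKMS, as did 61.4% of all genes tested, and a contrast over both cassettes selects for this. The count of 89 was 191 without TNG MKOS ESC replicate 1, 140 without MKOS iPSC replicate 1 and 190 without OKMS iPSC replicate 2, and in these and the other 5 fits that left out 1 library it ranged from 62 to 191.

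**Figure D1:**
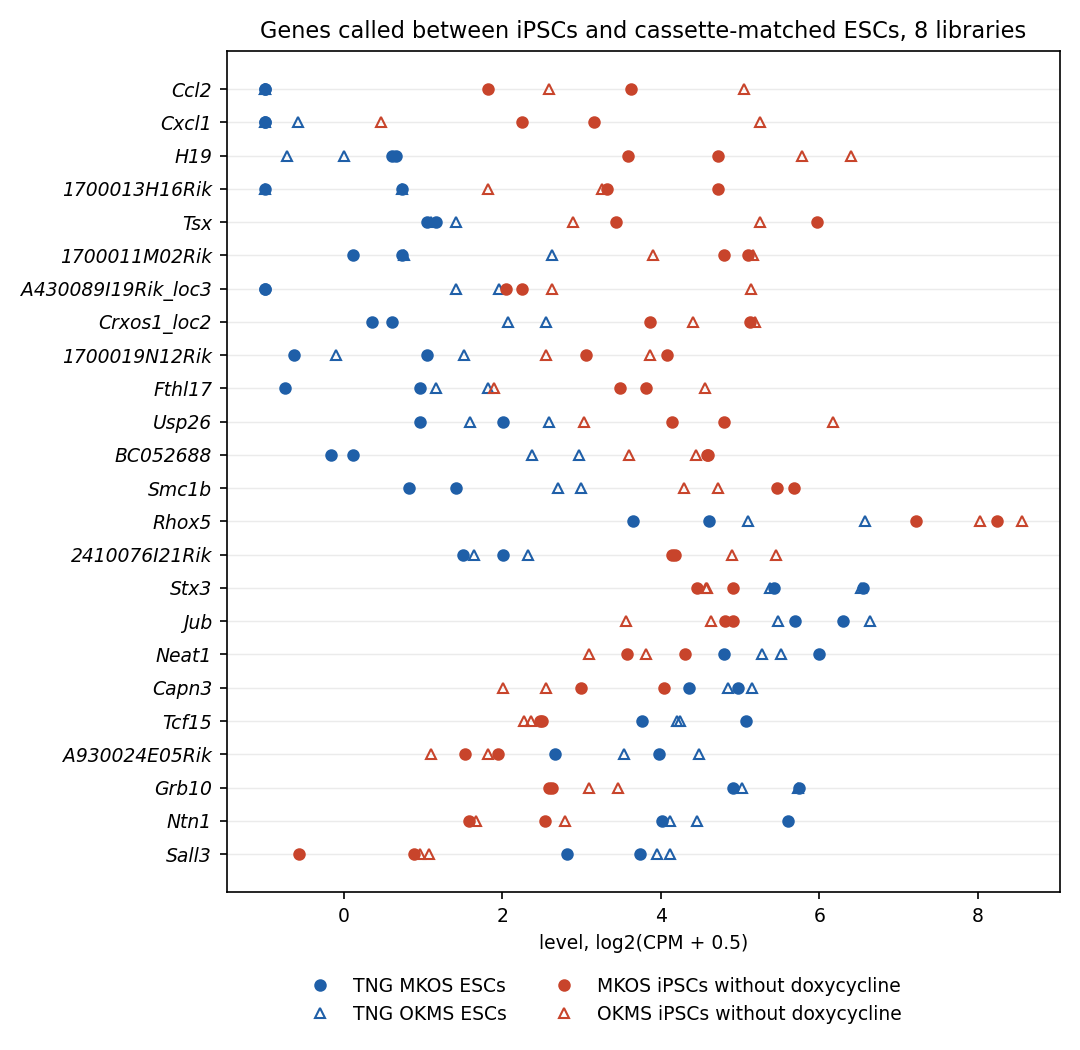
Level as log2(CPM + 0.5) of the called genes with no overlap between groups that lead by log2 fold change, in the 4 TNG ESC libraries (blue) and the 4 iPSC libraries (red), 1 point per library (circles MKOS, triangles OKMS). H19 lies at 0.109 to 1.08 CPM in the ESCs and 11.5 to 83.7 CPM in the iPSCs, and Grb10 lies at 29.7 to 53 CPM and 5.50 to 10.5 CPM.

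Imprinted genes supplied some of the largest differences in both directions. H19, a maternally expressed long non-coding RNA on chromosome 7, was at 1.08 and 1.02 CPM in TNG MKOS ESCs, 0.503 and 0.109 CPM in TNG OKMS ESCs, 25.9 and 11.5 CPM in MKOS iPSCs and 83.7 and 54.5 CPM in OKMS iPSCs. All 4 iPSC libraries lay above all 4 ESC libraries, and the log2 fold change was 5.83 ± 0.63 (SE; FDR = 9.58e-05; 6.55 without TNG MKOS ESC replicate 1). H19 was 0.887 and 0.872 CPM in TNG ESCs, and 5.31 and 9.30 CPM in E14 ESCs. MEFs differed widely: MKOS MEFs had 31.2 and 33.6 CPM, OKMS MEFs 2730 and 3550 CPM and wild-type MEFs 2020 and 2920 CPM. Mir675, whose hairpin lies within H19 and whose reads were not uniquely mapped, was at 0 in all 4 ESC libraries and at 0.177 to 7.84 CPM in the iPSCs, at least 51.7-fold higher (FDR = 0.0122, a gene chosen after its values were seen).

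Igf2, the paternally expressed neighbour of H19, was at 0.328 to 2.35 CPM in the ESCs and 0 to 4.28 CPM in the iPSCs (log2 difference 0.21, FDR = 0.972). Nnat, a paternally expressed gene for a membrane proteolipid of the developing brain, was at 0 in all 4 ESC libraries and at 2.90 and 5.50 CPM in MKOS iPSCs and 6.39 and 2.67 CPM in OKMS iPSCs. Against a floor of 3 reads over the ESC group, Nnat was at least 43.8-fold higher in iPSCs (FDR = 0.0101). It was at 0 in both TNG libraries and at 3.85 and 4.34 CPM in E14 ESCs.

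Grb10, which encodes an adaptor protein that restrains insulin and growth factor signalling, was the imprinted gene that fell. It was at 29.7 and 53 CPM in TNG MKOS ESCs, 32.2 and 52.8 CPM in TNG OKMS ESCs, 5.70 and 5.50 CPM in MKOS iPSCs and 10.5 and 8.02 CPM in OKMS iPSCs. The 2 groups did not overlap, and the log2 fold change was -2.38 ± 0.35 (SE; FDR = 0.00107). Grb10 was also at 36.1 and 39.5 CPM in E14 ESCs, 49.2 and 69.2 CPM in TNG ESCs and 4.14 and 4.03 CPM in D6 iPSCs.

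Among 46 tested genes of the imprinted list outside the Dlk1-Dio3 cluster, 3 rose (6.52%, beside 0.635% of all genes). In the same list 1 fell (2.17%, beside 0.0804%). The median log2 fold change was 0.15, beside -0.01 over all genes. The 3 that rose were H19, Nnat and Rhox5, which is also counted with the Rhox genes. The other genes of the list were not past the threshold. Snurf, part of the imprinted Snrpn transcript, was at 183 to 277 CPM in the ESCs and 305 to 488 CPM in the iPSCs (log2 difference 1.01, FDR = 0.131).

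The maternally expressed non-coding RNAs of the Dlk1-Dio3 cluster have been used as a marker of iPSC quality. Meg3 (Gtl2) was at 140 and 395 CPM in TNG MKOS ESCs, 314 and 169 CPM in TNG OKMS ESCs, 141 and 190 CPM in MKOS iPSCs and 107 and 64.3 CPM in OKMS iPSCs. The groups overlapped, and the log2 difference of -0.87 was not past the threshold (FDR = 0.280), although it was -1.12 without TNG MKOS ESC replicate 1 (FDR = 0.0377). Rian differed by -0.40 (FDR = 0.726) and Mirg by -0.52 (FDR = 0.765). Dlk1, the protein-coding gene at 1 end of the cluster, reached 1.35 CPM at most in the 8 libraries and was not tested, and neither were Rtl1, Dio3, Begain and Dio3os.

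The germline list held the most genes that rose of the lists examined. Of 29 tested, 6 rose (20.7%, beside 0.635% of all genes), none fell, and the median log2 fold change was 1.13, with 1.10 within MKOS and 1.20 within OKMS. Taken within 1 cassette, 4 of them (Smc1b, Hormad1, Stra8 and Rpl10l) were past the threshold in MKOS and 0 in OKMS by edgeR, and the difference between cassettes was not past the threshold for any gene. The summed level of the list was 409 and 458 CPM in TNG MKOS ESCs, 528 and 524 CPM in TNG OKMS ESCs, 953 and 890 CPM in MKOS iPSCs and 1020 and 709 CPM in OKMS iPSCs. The iPSC sums lay above all 4 ESC sums. The list summed to 720 and 661 CPM in E14 ESCs, 394 and 402 CPM in TNG ESCs and 12.4 to 31.6 CPM in MEFs. The number that rose was 5 to 9 in the fits that left out 1 library, 9 by DESeq2, 10 of 31 with no filter on low counts and 2 of 31 with all 48 libraries fitted.

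The 6 genes were Smc1b, Stag3, Hormad1, Stra8, Zcwpw1 and Rpl10l. The promoters of 4 of them are shown, those of the 3 genes with TCCCGC and that of Stra8, which lacks it. Stag3 and Zcwpw1 also lack it and are not shown. The promoters were examined because 2 hexamers, TCCCGC and the E-box CACGTG, are known from promoters of germline genes that are silent in ESCs. Each is the 150 bases before the RefSeq transcription start (GRCm38.p6), written 5′ to 3′ on the strand of the gene, with TCCCGC (or its reverse complement GCGGGA) and CACGTG in capitals. The matches shown do not overlap.
Smc1b, chr15:85131958-85132107, minus strand: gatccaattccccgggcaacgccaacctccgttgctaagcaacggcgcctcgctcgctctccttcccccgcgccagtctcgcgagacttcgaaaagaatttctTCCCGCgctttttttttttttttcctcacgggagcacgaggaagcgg
Hormad1, chr3:95559527-95559676, plus strand: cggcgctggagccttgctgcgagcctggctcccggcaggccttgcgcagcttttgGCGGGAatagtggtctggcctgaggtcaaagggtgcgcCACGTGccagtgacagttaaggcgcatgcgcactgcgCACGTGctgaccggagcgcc
Rpl10l, chr12:66284402-66284551, minus strand: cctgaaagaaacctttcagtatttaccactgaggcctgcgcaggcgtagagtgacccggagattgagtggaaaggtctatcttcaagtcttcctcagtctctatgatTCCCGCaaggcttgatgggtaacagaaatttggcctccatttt
Stra8, chr6:34920798-34920947, plus strand: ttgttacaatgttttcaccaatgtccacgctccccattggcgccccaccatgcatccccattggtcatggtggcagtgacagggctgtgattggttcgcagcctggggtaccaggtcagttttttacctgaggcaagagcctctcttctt

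TCCCGC was in the windows of Smc1b, Hormad1 and Rpl10l, 3 of the 6 genes, and not in those of Stag3, Stra8 and Zcwpw1. Of the 79 higher genes, 54 had a promoter entry and 10 of these (18.5%) held it, beside 14.3% of all 27025 genes with an entry. CACGTG was in 1 of the 6, Hormad1, in 2 of the 54 (3.70%) and in 4.92% of all genes.

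Smc1b encodes a cohesin subunit used in meiosis. It was at 1.27 and 2.18 CPM in TNG MKOS ESCs, 6.04 and 7.44 CPM in TNG OKMS ESCs, 43.9 and 50.9 CPM in MKOS iPSCs and 25.8 and 19 CPM in OKMS iPSCs. Every iPSC value exceeded every cassette-matched ESC value, with the widest gap in the MKOS pair. The log2 fold change was 3.32 ± 0.50 (SE; FDR = 0.00113). E14 ESCs, at 29.3 and 28.4 CPM, lay within the iPSC range, and TNG ESCs were at 0.69 and 4.27 CPM. Stag3, a second meiotic cohesin subunit, was at 4.30 to 9.31 CPM in the ESCs and 12.8 to 31.4 CPM in the iPSCs (1.75, FDR = 0.0243). Stag3 was at 39.4 and 36.1 CPM in E14 ESCs, above the iPSC range, and 11.3 and 10.3 CPM in TNG ESCs. Its call was lost without TNG OKMS ESC replicate 1 (FDR = 0.0774) and without OKMS iPSC replicate 1 (FDR = 0.139).

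Hormad1, a protein of the meiotic chromosome axis, was at 23.6 and 14 CPM in TNG MKOS ESCs, 27.3 and 32.6 CPM in TNG OKMS ESCs, 71.7 and 88.9 CPM in MKOS iPSCs and 60.0 and 70.6 CPM in OKMS iPSCs. The groups did not overlap (log2 fold change 1.72 ± 0.31, SE; FDR = 0.00666). Rpl10l, a testis copy of Rpl10, was the only 1 of 91 ribosomal protein genes past the threshold (1.1%, beside 0.635% of all genes higher). It was at 47.1 to 83.0 CPM in the ESCs and 140 to 225 CPM in the iPSCs (1.61, FDR = 0.00597). Zcwpw1, a histone methylation reader of meiotic cells, was at 6.26 to 20.5 CPM in the ESCs and 20.2 to 76.7 CPM in the iPSCs (1.71, FDR = 0.00925). Its groups overlapped narrowly, since MKOS iPSCs at 20.2 and 21.1 CPM lay about level with TNG OKMS ESCs at 20.5 and 18.6 CPM. Zcwpw1 was at 41.2 and 45.9 CPM in E14 ESCs and 29.4 and 25.2 CPM in TNG ESCs, all within the iPSC range. In E14 ESCs, Hormad1 at 52.7 and 50.7 CPM and Rpl10l at 96.1 and 111 CPM lay between the 2 groups.

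Stra8, a gate of entry into meiosis, was at 0.489 and 2.76 CPM in TNG MKOS ESCs, 2.52 and 3.61 CPM in TNG OKMS ESCs, 59.3 and 3.19 CPM in MKOS iPSCs and 12.8 and 13 CPM in OKMS iPSCs. MKOS iPSC replicate 1 was the highest by far and replicate 2 lay within the ESC range. E14 ESCs, at 37.0 and 21.8 CPM, lay within the iPSC range, and TNG ESCs were at 0.394 and 2.35 CPM. The log2 fold change of 3.32 ± 0.69 (SE; FDR = 0.0200) was 1.89 without MKOS iPSC replicate 1 and was then not past the threshold (FDR = 0.226). Among germline genes not past the threshold, Hsf2bp, at 62.1 to 100 CPM in the ESCs and 104 to 190 CPM in the iPSCs, had a log2 difference of 0.97 (FDR = 0.153), Dazl one of 1.22 (FDR = 0.450) and Ddx4 one of -0.31 (FDR = 0.879).

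Other testis and meiosis genes past the threshold lay outside the fixed list and were chosen after their values were seen. Tuba3a, a testis alpha-tubulin, was at 13.1 to 21.6 CPM in the ESCs and 69.0 to 105 CPM in the iPSCs (log2 fold change 2.56, FDR = 9.58e-05), and was also at 152 and 148 CPM in E14 ESCs. Hormad2 (3.42, FDR = 0.00484), the meiotic kinase gene Aurkc (2.77, FDR = 0.00925) and the testis lactate dehydrogenase gene Ldhc (4.62, FDR = 0.0185) were higher too. Obox6, an oocyte homeobox gene, was at 0 in the 4 ESC libraries and at 3.39 to 5.81 CPM in the iPSCs, at least 52.1-fold higher (FDR = 0.00666).

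**Figure D2:**
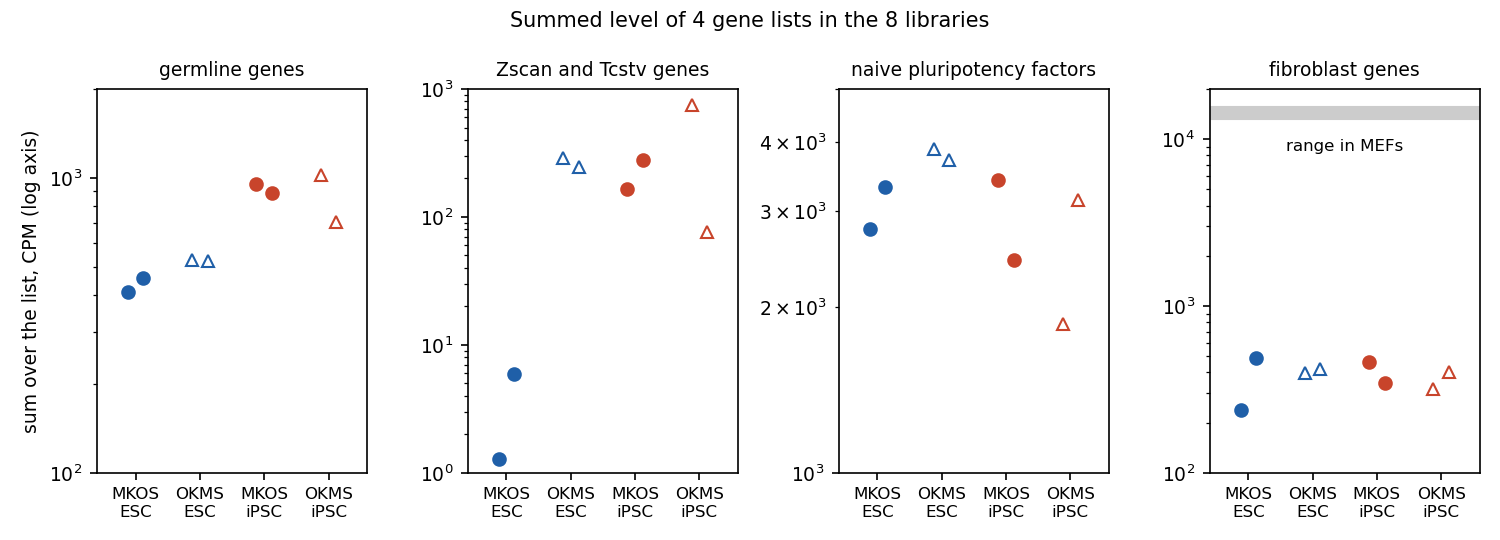
Summed CPM, on log axes, of the germline, Zscan and Tcstv, naive pluripotency and fibroblast lists in the 8 libraries, 1 point per library (circles MKOS, triangles OKMS), with a grey band for the range in MEFs in the fibroblast panel. The germline sums lie at 409 to 528 CPM in the 4 ESC libraries and 709 to 1020 CPM in the 4 iPSC libraries, while the fibroblast sums of both groups lie far below the MEFs.

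X-linked genes made up 13 of the 79 higher genes (16.5%), beside 3.69% of all genes tested, and none of the 10 lower genes. The median log2 fold change was 0.17 over the X chromosome and -0.09 to 0.07 over the autosomes. The X median was 0.08 within MKOS and 0.12 within OKMS, beside autosome medians of up to 0.05 and 0.10. Rhox5, an X-linked homeobox gene expressed in placenta and testis, was at 23.9 and 12.1 CPM in TNG MKOS ESCs, 95.1 and 33.8 CPM in TNG OKMS ESCs, 149 and 302 CPM in MKOS iPSCs and 260 and 376 CPM in OKMS iPSCs. The lowest iPSC value lay above the highest cassette-matched ESC value, and the log2 fold change was 3.14 ± 0.38 (SE; FDR = 0.000178). E14 ESCs, at 251 and 204 CPM, lay within the iPSC range, and TNG ESCs were at 17.5 and 15.3 CPM. Rhox5 was the 1 called gene of 6 Rhox genes tested (16.7%, beside 0.635% of all genes). The median of these 6 was 1.86, with 6 of 6 above 0.

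Tsx, a testis-expressed gene beside the X inactivation centre, was at 1.57 to 2.18 CPM in the ESCs and at 10.3, 62.5, 37.7 and 6.95 CPM in the iPSCs. The iPSC values spread widely but all lay above the cassette-matched ESCs. The log2 fold change was 4.18 ± 0.58 (SE; FDR = 0.000671), and 3.38 without MKOS iPSC replicate 2. Tsx was at 10.5 and 9.91 CPM in E14 ESCs, within the iPSC range, and 3.55 and 1.57 CPM in TNG ESCs. Usp26, a testis deubiquitinase, was at 1.45 to 5.54 CPM in the ESCs and 7.66 to 71.6 CPM in the iPSCs (3.39, FDR = 0.00281), and its log2 fold change was 2.40 without OKMS iPSC replicate 1. Fthl17, a ferritin heavy chain-like gene, was higher by 3.42 (FDR = 0.0129), and the call was lost without OKMS iPSC replicate 1 (FDR = 0.146). 1700013H16Rik was higher by 4.54 (FDR = 0.00984; 5.56 without TNG OKMS ESC replicate 1) and 1700011M02Rik by 4.14 (FDR = 0.000196; 4.90 without TNG OKMS ESC replicate 1).

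Members of the Xlr family, X-linked lymphocyte-regulated genes, were also higher and were chosen after their values were seen. Xlr5b was at 0 in the 4 ESC libraries and at 1.60 to 15.1 CPM in the iPSCs, at least 86.3-fold higher (FDR = 0.00107). Xlr3a had 3 reads over the ESCs and 138 over the iPSCs, a ratio of 57.5 with a 95% counting interval of 19.3 to 282 (FDR = 0.00925), and Xlr3b and Xlr3c rose by 4.47 and 4.45. Fthl17, 1700011M02Rik, Xlr5b, Xlr3b and Xlr3c had under 50% uniquely mapped reads, as did 14 of the 79 genes, so that reads of near-identical copies may be shared between them.

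Several of the 79 genes were abundant in MEFs, and others were not detected there. 40 of the 79 (50.6%) had a mean under 1 CPM in MEFs, beside 12.6% of all genes, and 31 (39.2%) had at least 10 CPM, beside 57.6%. Ccl2, a chemokine that attracts monocytes, had a mean of 233 CPM in MEFs. It was at 0 in all 4 ESC libraries and at 11.8 and 3.02 CPM in MKOS iPSCs and 32.6 and 5.52 CPM in OKMS iPSCs, at least 133-fold higher (FDR = 0.000196; at least 83.2-fold without OKMS iPSC replicate 1). Cxcl1, a neutrophil chemokine at 15.6 to 136 CPM in MEFs, had 1 read over the 4 ESC libraries and 292 over the iPSCs, at 8.40, 4.26, 37.5 and 0.891 CPM. Its ratio was 365, with a 95% counting interval of 65.0 to 14500, and its FDR of 0.000664 rose to 0.0467 without OKMS iPSC replicate 1, where the log2 fold change fell from 8.22 to 6.12.

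Tagln, an actin-binding protein of smooth muscle and fibroblasts, was the 1 called gene of 20 fibroblast genes tested (5.0%, beside 0.635% of all genes). The list median was 1.08, 15 of the 20 were above 0, and by DESeq2 3 of them rose. Tagln was at 2.54 and 0.436 CPM in TNG MKOS ESCs, 3.35 and 5.47 CPM in TNG OKMS ESCs, 5.39 and 16.3 CPM in MKOS iPSCs and 6.60 and 51.0 CPM in OKMS iPSCs. The groups overlapped, and the log2 fold change of 2.81 (FDR = 0.0243) was not past the threshold without OKMS iPSC replicate 2 (2.02, FDR = 0.207) or without TNG OKMS ESC replicate 1 (FDR = 0.0856). Tm4sf1, a tetraspanin-like surface protein with a mean of 599 CPM in MEFs, was at 0 in the ESCs and 2.13 to 25.4 CPM in the iPSCs, at least 85.5-fold higher (FDR = 0.00107; at least 42.1-fold without OKMS iPSC replicate 1, chosen after its values were seen). In bulk libraries such as these, a larger share of cells with a transcript and more of it per cell cannot be told apart. The part of residual or differentiating cells in these values was not tested, and the values of Col1a1 and of the summed fibroblast list in the same libraries are those given above.

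Dppa3 (Stella) is a maternal factor that protects methylation in the zygote and marks primordial germ cells and naive cells. It was the 1 called gene of 16 in the list of Dppa and other pluripotency-associated genes (6.25%, beside 0.635% of all genes, list median 0.11). It was at 41.4 and 52.5 CPM in TNG MKOS ESCs and 133 and 12.6 CPM in TNG OKMS ESCs. In the iPSCs it was at 322 and 117 CPM for MKOS and 482 and 187 CPM for OKMS. E14 ESCs, at 182 and 143 CPM, lay within the iPSC range, and TNG ESCs were at 39.8 and 33.0 CPM. TNG OKMS ESC replicate 1 reached the level of MKOS iPSC replicate 2. The log2 fold change of 2.46 ± 0.47 (SE; FDR = 0.0118) was 3.14 without that ESC library. Crxos1_loc2, a homeobox locus, was at 0.783 to 5.37 CPM in the ESCs and 14 to 36.1 CPM in the iPSCs (3.76, FDR = 0.000196).

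A further 4 genes with large differences have no described role given here. In 2 of them the TNG MKOS ESC libraries were the lowest. A430089I19Rik_loc3 was at 0 CPM in both of these and at 2.18 and 3.39 CPM in TNG OKMS ESCs. BC052688 was at 0.391 and 0.582 CPM in TNG MKOS ESCs and 4.70 and 7.33 CPM in TNG OKMS ESCs. Its log2 fold change was 5.59 within MKOS and 1.70 within OKMS, a difference not past the threshold. 2410076I21Rik was higher by 3.11 (FDR = 0.000233) and 1700019N12Rik by 3.44 (FDR = 0.0129). BC052688, with 9.13% uniquely mapped reads, was higher by 3.32 (FDR = 0.0118; 4.06 without OKMS iPSC replicate 2). A430089I19Rik_loc3, with 0% uniquely mapped reads, was higher by 3.96 (FDR = 0.00925), by 4.75 without OKMS iPSC replicate 2, and not past the threshold without OKMS iPSC replicate 1 (FDR = 0.204), the library with 34.7 CPM against 3.63 to 5.70 CPM in the other iPSCs.

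Phgdh, the first enzyme of serine synthesis, was the 1 called gene of 21 amino acid stress response genes (4.76%, beside 0.635% of all genes). The list had a median of 0.88, with 0.63 within MKOS and 0.65 within OKMS, and 19 of 21 genes were above 0. It summed to 1330 to 2360 CPM in the iPSCs and 985 to 1830 CPM in the cassette-matched ESCs. The sums were 2420 and 2140 CPM in E14 ESCs and 970 and 1220 CPM in TNG ESCs. Phgdh was at 84.2 to 120 CPM in the cassette-matched ESCs and at 210, 226, 289 and 142 CPM in the iPSCs, with no overlap (1.27 ± 0.28, SE; FDR = 0.0366). E14 ESCs, at 240 and 218 CPM, lay within the iPSC range, and TNG ESCs were at 94.0 and 124 CPM. The call was lost when TNG OKMS ESC replicate 1 or 2, MKOS iPSC replicate 2 or OKMS iPSC replicate 1 was left out (largest FDR 0.171). Psat1, the next enzyme of the pathway, differed by 0.95 (FDR = 0.200), the asparagine synthetase gene Asns by 1.12 (FDR = 0.140) and the upstream factor gene Atf4 by 0.04 (FDR = 0.972).

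Ifi35 was the 1 called gene of 11 interferon-stimulated genes (9.09%, list median 0.33), at 1.87 (FDR = 0.0471). Cox7b2, a testis form of a cytochrome c oxidase subunit, was the 1 of 78 oxidative phosphorylation genes (1.28%, list median 0.25), at 2.00 (FDR = 0.0307). Over all genes tested, 0.635% were called higher. The calls of Ifi35 and Cox7b2 were lost in the same 5 fits, those without TNG MKOS ESC replicate 2, TNG OKMS ESC replicate 1 or 2, MKOS iPSC replicate 2 or OKMS iPSC replicate 1.

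The 10 lower genes included regulators of development. Sall3, a zinc finger transcription factor, was at 6.55 and 12.8 CPM in TNG MKOS ESCs, 16.9 and 15.0 CPM in TNG OKMS ESCs, 1.35 and 0.177 CPM in MKOS iPSCs and 1.44 and 1.60 CPM in OKMS iPSCs. No iPSC value reached the range of the cassette-matched ESCs, and the log2 fold change was -3.27 ± 0.56 (SE; FDR = 0.00484). Sall3 was also low in E14 ESCs, at 1.33 and 2.35 CPM, and was at 16.7 and 15.2 CPM in TNG ESCs. Ntn1, the secreted guidance factor netrin-1, was at 15.7 to 48 CPM in the ESCs and 2.48 to 6.42 CPM in the iPSCs (-2.38, FDR = 0.00925).

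Tcf15 is a basic helix-loop-helix factor of cells that leave the naive state. It was the 1 gene that fell of 16 formative and primed epiblast genes (6.25%, beside 0.0804% of all genes, list median -0.29). It was at 13.1 and 33.3 CPM in TNG MKOS ESCs, 18.5 and 17.9 CPM in TNG OKMS ESCs, 5.08 and 5.15 CPM in MKOS iPSCs and 4.33 and 4.63 CPM in OKMS iPSCs. The 4 iPSC values were tightly grouped below the ESCs (-1.92 ± 0.38, SE; FDR = 0.0154), and without TNG MKOS ESC replicate 2 the value was -1.65 (FDR = 0.104).

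The other lower genes were Spink3, Neat1, Capn3, Jub, A930024E05Rik and Stx3. Neat1 was at 8.04 to 19.2 CPM in the iPSCs and at 11.2 and 13.9 CPM in TNG ESCs. In E14 ESCs it was at 29.9 and 16.6 CPM. Stx3 was at 21.5 to 29.5 CPM in the iPSCs, 28.1 and 30.5 CPM in TNG ESCs and 22.7 and 18.6 CPM in E14 ESCs. Jub was at 11.3 to 29.5 CPM in the iPSCs, 36.5 and 26.2 CPM in TNG ESCs and 24.0 and 10.5 CPM in E14 ESCs. Capn3 was at 33.4 and 32.8 CPM in TNG ESCs, within the cassette-matched ESC range, and 7.43 and 5.70 CPM in E14 ESCs. Spink3, a secreted protease inhibitor chosen after its values were seen, was at 244 and 25 CPM in TNG MKOS ESCs, 268 and 407 CPM in TNG OKMS ESCs, 24.2 and 60.5 CPM in MKOS iPSCs and 14.6 and 47.6 CPM in OKMS iPSCs. TNG MKOS ESC replicate 2 lay within the iPSC range, and the log2 fold change was -2.50 ± 0.56 (SE; FDR = 0.0366). Neat1, the RNA scaffold of paraspeckles, fell by 1.59 on the log2 scale (FDR = 0.0182), and lost its call without TNG MKOS ESC replicate 2, TNG OKMS ESC replicate 2 or MKOS iPSC replicate 2 (largest FDR 0.0841). Capn3, a calcium-dependent protease, fell by 1.78 (FDR = 0.0324), and lost its call without TNG OKMS ESC replicate 1 or 2, MKOS iPSC replicate 2 or OKMS iPSC replicate 1 (largest FDR 0.0995). Jub (ajuba, a LIM-domain protein) fell by 1.40 (FDR = 0.0269), with an FDR of 0.128 without TNG OKMS ESC replicate 1, and its call was also lost without OKMS iPSC replicate 1. A930024E05Rik fell by 2.26 (FDR = 0.0411), and lost its call without TNG MKOS ESC replicate 1, TNG OKMS ESC replicate 2, MKOS iPSC replicate 1 or OKMS iPSC replicate 1 (largest FDR 0.196). Stx3, a membrane fusion syntaxin, fell by 1.24 (FDR = 0.0488), and stayed past the threshold only without TNG MKOS ESC replicate 1 or TNG OKMS ESC replicate 2.

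Whether the difference between iPSCs and ESCs depended on the cassette was asked in a fit with 1 coefficient per condition. Within MKOS 59 genes (0.474%) were past the threshold, 54 higher (0.434%) and 5 lower (0.0402%), and within OKMS 13 (0.104%), all higher. The test of the difference between the 2 contrasts called 0 genes by edgeR's quasi-likelihood test, with 417 at an unadjusted p under 0.05 (3.35%), and 0 by DESeq2, with 489. The interaction count was 1 to 35 when any 1 of the 8 libraries was left out. The OKMS count was 137 and 116 without TNG MKOS ESC replicate 1 and 2, 3 without TNG OKMS ESC replicate 2, 91 and 94 without MKOS iPSC replicate 1 and 2, and 244 without OKMS iPSC replicate 2. The MKOS count rose to 92 without TNG MKOS ESC replicate 1, 94 without MKOS iPSC replicate 1, and 96 and 104 without OKMS iPSC replicate 1 and 2.

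Of the 6 genes with the smallest interaction p-values, 3 (Zscan4f, Zscan4d and Tcstv1) were from the Zscan4 and Tcstv families, which mark rare two-cell-like cells in ESC cultures, and the others were LOC100861880_loc7, Gm4305_loc2 and Gm5662. The Zscan and Tcstv genes summed to 1.27 and 5.97 CPM in TNG MKOS ESCs, 288 and 244 CPM in TNG OKMS ESCs, 164 and 277 CPM in MKOS iPSCs, 753 and 76.6 CPM in OKMS iPSCs and 0 CPM in MEFs. The 2 TNG MKOS ESC libraries were the low ones, and both OKMS iPSC libraries and both TNG OKMS ESC libraries overlapped. Zscan4d, a zinc finger gene with 3.93% uniquely mapped reads, chosen after its values were seen, was at 0.685 and 0 CPM in TNG MKOS ESCs, 71.3 and 121 CPM in TNG OKMS ESCs, 59.5 and 144 CPM in MKOS iPSCs and 427 and 33.3 CPM in OKMS iPSCs. Its log2 fold change was 7.93 within MKOS and 1.54 within OKMS, and the difference of -6.39 ± 1.27 (SE) was not past the threshold (FDR = 0.115). With genes at 0 on 1 side set to their bound, the list of 8 had a median of 5.35 within MKOS and 0.36 within OKMS.

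None of the 8 Zscan and Tcstv genes, nor of the 15 two-cell-like genes tested, was past the threshold in the comparison over both cassettes (medians 2.56 and 2.20). Without OKMS iPSC replicate 2, 7 of the Zscan and Tcstv genes and 9 of the two-cell-like genes were past it. The two-cell-like count was also 2 without TNG OKMS ESC replicate 2, 3 without MKOS iPSC replicate 1 and 1 without MKOS iPSC replicate 2, and 0 in the other 4 fits that left out 1 library. With 1 coefficient per condition 5 Zscan and Tcstv genes and 6 two-cell-like genes were past the threshold, with no filter on low counts 7 and 9, with E14 and TNG ESCs added 7 and 10, with all 48 libraries 3 and 4, and by DESeq2 0 and 0.

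**Figure D3:**
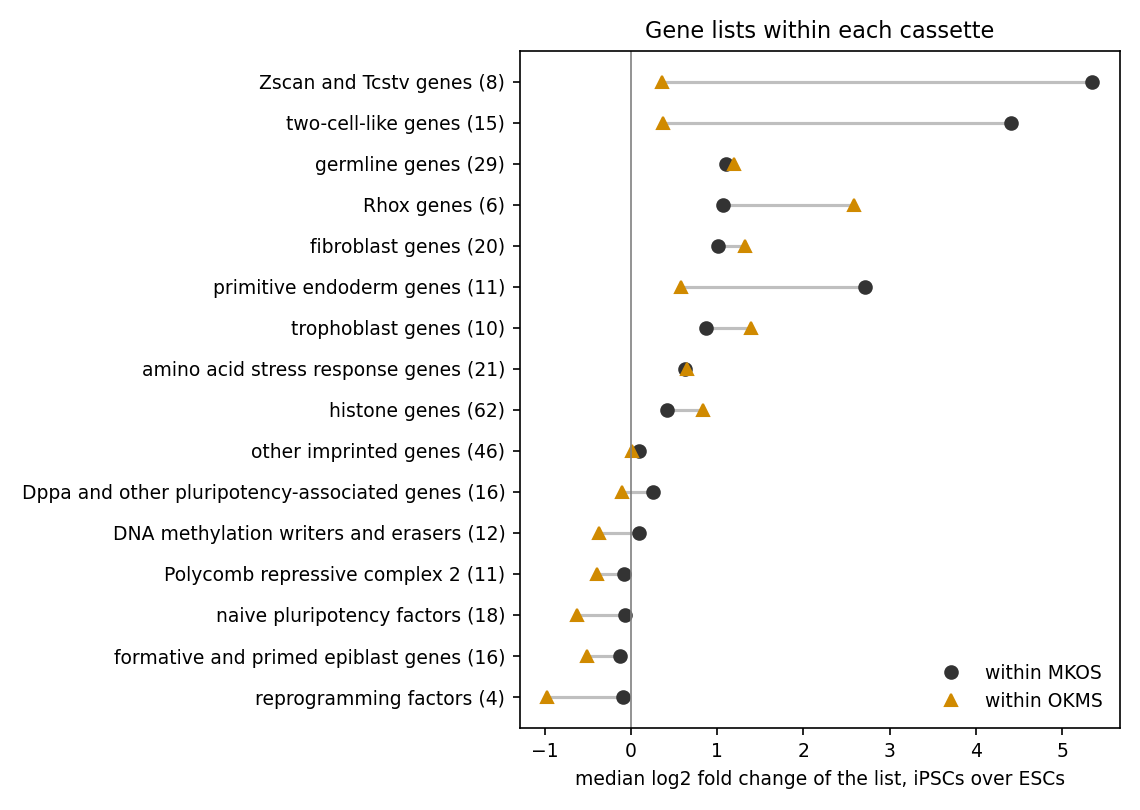
Median log2 fold change, iPSCs over ESCs, of gene lists within the MKOS pair (circles) and the OKMS pair (triangles), with the number of genes tested in brackets and genes at 0 on 1 side set to their bound. The germline list is near 1.10 and 1.20 in the 2 pairs, whereas the Zscan and Tcstv list is at 5.35 and 0.36.

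Of 39 gene lists examined, 9 held at least 1 gene that rose, 2 held 1 that fell and 29 held none. Among the 23 lists with none called and at least 5 genes tested, medians ran from -1.06 for neuroectoderm genes (5 tested) to 2.56 for Zscan and Tcstv genes. Of the 11 primitive endoderm genes tested, 10 were above 0, with a median of 1.52 (2.71 within MKOS and 0.58 within OKMS). By DESeq2 2 of them rose, and with no filter on low counts 4 of 18 did. The 18 genes of the list summed to 177 to 536 CPM in the iPSCs and 155 to 304 CPM in the ESCs. Sox17, 1 gene of this list, was at 0 CPM in all 4 ESC libraries and at most 0.519 CPM in the iPSCs. The 10 trophoblast genes had a median of 0.91, the 12 DNA methylation genes one of -0.25 and the 11 genes of Polycomb repressive complex 2 one of -0.18. Of 62 histone genes, 57 were above 0 with a median of 0.65, and none was past the threshold.

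The other pluripotent lines show where the 89 genes lie outside the libraries that chose them. The differences below are log2(CPM + 0.5) against the mean of the 4 cassette-matched ESC libraries, and are given as a description, since these ESC libraries also chose the genes. The 79 higher genes had a median difference of 2.29 in MKOS iPSCs and 2.52 in OKMS iPSCs, which chose them, and of 2.47 in MKOS iPSCs in 2i medium, 2.06 in OKMS iPSCs in 2i medium and 1.46 in D6 iPSCs. In TNG ESCs the median was 0.04, with 44 of 79 above 0, and in E14 ESCs it was 1.23, with 73 of 79 above 0. The 10 lower genes had medians of -2.98 in D6 iPSCs, -1.59 in E14 ESCs, where none was above 0, and -0.37 in TNG ESCs, where 3 were. How much of each median comes from the use of the 4 ESC libraries in choosing the genes was not tested.

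**Figure D4:**
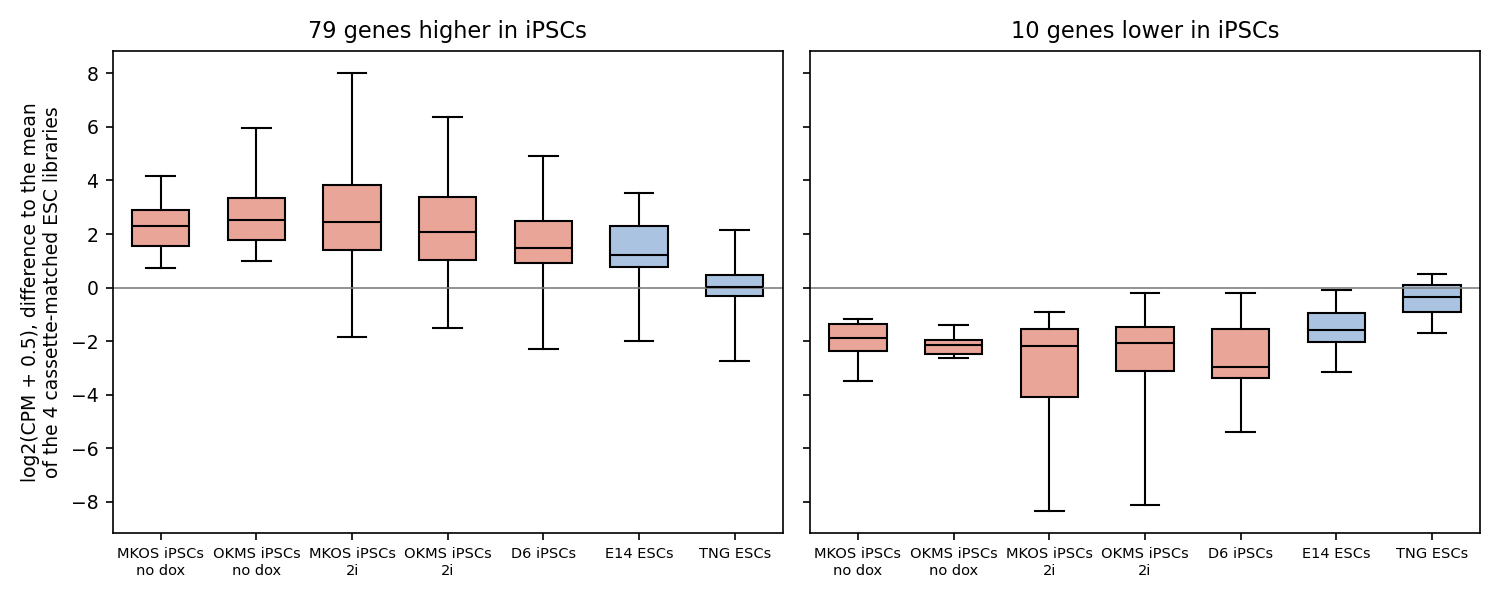
Difference in log2(CPM + 0.5) to the mean of the 4 cassette-matched ESC libraries for the 79 higher and the 10 lower genes, with boxes at the quartiles, a line at the median and whiskers to the lowest and highest gene. The median of the higher genes is 1.46 in D6 iPSCs, 1.23 in E14 ESCs and 0.04 in TNG ESCs.

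A second comparison shared no library with the first. It set MKOS iPSCs in 2i, OKMS iPSCs in 2i and D6 iPSCs against E14 and TNG ESCs. Its lines are related to those of the first, since both cassette ESC lines were made from TNG ESCs and the 2i iPSCs carry the same cassettes. Of 13113 genes tested, 2080 (15.9%) were past the threshold, 1080 higher (8.24%) and 1000 lower (7.63%). The count was 1331 and 1339 without E14 replicate 1 and 2 and 1320 without TNG ESC replicate 1. The 2i medium and the iPSC state cannot be told apart in 2 of these 3 lines, so D6 was also taken alone. D6 does not isolate the iPSC state either, since the formative and primed epiblast genes summed to 143 and 158 CPM in D6, 91.7 to 125 CPM in 2i and 371 to 718 CPM in the 8 cassette-matched libraries, Myc was at 0.518 and 2.98 CPM in D6, and Hprt was far higher in D6 than in the other pluripotent lines. For D6 there were 950 genes past the threshold (7.24%), 618 higher (4.71%) and 332 lower (2.53%). The count of 950 was 336 and 465 without D6 replicate 1 and 2, 611 without E14 replicate 2, and 1493 and 1496 without MKOS iPSC 2i replicate 1 and 2. Of the 79 genes, 67 had the same direction in the second comparison, 43 were past the threshold in that direction and 3 in the other, with a median of 1.40, and in D6 alone the numbers were 64, 35 and 3, with a median of 1.14. Of the 10 lower genes, 9 kept the direction and 5 were past the threshold, and 7 and 5 in D6. Over all genes tested, 8.24% were called higher and 7.63% lower, and 4.71% and 2.53% in D6. The share of all genes with the same direction is not given, so the direction counts have no background beside them.

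Individual genes differed in how far they carried over. Rhox5 rose by 2.12 (FDR = 9.38e-06) in the second comparison and by 1.54 (FDR = 0.00281) in D6, Dppa3 rose by 2.32 (FDR = 2.59e-06) and 1.72 (FDR = 0.000931), and 1700013H16Rik by 9.88 (FDR = 1.18e-08) and 7.58 (FDR = 6.91e-06). Grb10 fell by 2.90 (FDR = 6.73e-08) and 3.48 (FDR = 3.75e-06). Smc1b rose by 1.79 (FDR = 0.00270) in the second comparison, with 1.33 in D6 (FDR = 0.0850). Smc1b in D6, at most 21.8 CPM, lay below E14 ESCs (29.3 and 28.4 CPM) and above TNG ESCs (0.69 and 4.27 CPM). H19 had values of 0.41 (FDR = 0.689) and -0.86 (FDR = 0.595), and Tsx of -0.19 (FDR = 0.817) and -1.51 (FDR = 0.140). Zcwpw1 went the other way, with -1.24 (FDR = 0.000787) and -1.16 (FDR = 0.0289). Phgdh had values of -0.08 (FDR = 0.806) and 0.34 (FDR = 0.417), and Neat1 of 0.57 (FDR = 0.167) and 0.48 (FDR = 0.480). Sall3, the gene that fell furthest in the cassette-matched comparison, had values of -0.13 (FDR = 0.926) and 0.98 (FDR = 0.503).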

How the data were processed

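RNA of sorted cells was sequenced by a 5′-end tag protocol. The authors aligned reads with Bowtie and assigned multiply mapping reads to the most 5′ exonic hit, and deposited raw read counts per gene, with no normalization. The submitters' processing notes name Bowtie 0.12.7 and build mm10, whereas the methods name an older build, so no coordinates from the count table are given. Of 24264 transcript rows, 132 on chromosome Y were left out, and repeat rows (1554) and spike-in rows (104) were not tested. 0 value columns belonged to no sample.

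Counts were tested with edgeR 4.0.16 in R 4.3.3 (TMM normalization, filterByExpr over the 4 conditions, glmQLFit and glmQLFTest, Benjamini-Hochberg FDR of at most 0.05), in a model of cassette and cell type over 8 libraries (common dispersion 0.2115). Contrasts within a cassette and their difference came from a fit with 1 coefficient per condition, and the other lines from a separate fit of 10 libraries. DESeq2 1.42.0 was an alternative. Tables and figures used Python 3.11.15, pandas 2.3.3, NumPy 2.4.6 and Matplotlib 3.10.9. Intervals and the floor of 3 reads cover counting error only. Ratios of genes with 1 to 3 reads on 1 side used the exact (Clopper-Pearson) interval. In counts simulated for this comparison over 12443 genes, edgeR called 66 of 100 genes changed 4-fold, 11 of 100 changed 2-fold and 5 unchanged genes.

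Genes named were those past the threshold with no overlap between groups and a mean of at least 10 CPM in the higher group (the 15 highest and 15 lowest by log2 fold change), all members of the Dlk1-Dio3, reprogramming factor and reporter and cassette lists, and members of other lists past the threshold. Other genes, whether marked so where they appear or not past the threshold (Igf2, Snurf, Hsf2bp, Dazl, Ddx4, Psat1, Asns, Atf4, Col1a1 and Sox17), were chosen after their values were seen. The comparison, its members and the 39 gene lists were chosen with earlier results of these data known. Alternatives changed the scaling, tool, filter, covariate, replicate block, medium, ESC lines and libraries included.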

Additional observations from a re-analysis of the deposited data

Results flagged for a closer look

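In groups of 4 libraries, 98 sets of values were examined for a single library far from the other 3, and 7 were marked because that library's gap to the nearest of the others, over the whole range, passed Dixon's 95% limit. Chance marks about 1 in 20 groups. Among library measures, MKOS iPSC replicate 1 had 9642999 transcript reads, well above the other 3 iPSC libraries, and in TNG OKMS ESC replicate 1 the 20 most abundant genes took 13.56% of reads, below the other 3 ESC libraries. Among called genes, A430089I19Rik_loc3 was at 34.7 CPM in OKMS iPSC replicate 1, above the other iPSCs. In TNG OKMS ESC replicate 1, Cxcl1 was at 0.168 CPM, which is 1 read where the other ESC libraries had none, and 1700011M02Rik was at 5.70 CPM, above the other ESCs. Stag3 was at 4.30 CPM in TNG MKOS ESC replicate 1, below the other ESCs. Mirg, which did not pass the threshold, was at 8.16 CPM in MKOS iPSC replicate 2, above the other iPSCs. No cause was tested for any of these values.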

How the results depend on the processing

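The 89 calls of iPSCs against ESCs became 238 by DESeq2's Wald test, 317 with no filter on low counts, 50 with a mean of at least 10 CPM, 162 with 1 coefficient per condition, 59 without the cassette covariate, 1183 with the iPSCs in 2i medium, 315 with E14 and TNG ESCs added and 206 with all 48 libraries fitted, and ranged from 62 to 191 without 1 library each. Within MKOS the count was 89 by DESeq2 and 120 with no filter (63 to 104 without 1 library). Within OKMS it was 26 with DESeq2's size factors, 99 by DESeq2, 153 with no filter and 96 with all 48 libraries (3 to 244). The interaction gave 40 with no filter and 1 with all 48 libraries (1 to 35). The second comparison gave 1320 to 2731 without 1 library, and D6 gave 506 with all 48 libraries and 336 to 1496 without 1 library. Replicate numbers are shared by the labels only: correlations between same-numbered libraries were -0.232 to 0.0799 over 6 pairs of conditions. With the replicate block, 87 genes were called (80 of them among the 89), 36 within OKMS and 23 for the interaction. Klf4 reversed to 0.99 (FDR = 0.0441) with the iPSCs in 2i medium. The causes of these shifts were not tested. Of 35 called genes named by the rule, all kept their sign in 18 settings, 13 were called in each of them, and 21 in each of the 8 fits that left out 1 library. Where a condition was left with 1 library, that library was assumed to vary like the others. With 2 libraries per condition, simulated 2-fold changes were mostly missed, so a gene not past the threshold may still differ.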
